A study of Mus musculus with 33 samples.

Results

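Trim34a and Trim59 are 2 tripartite motif genes that lay on opposite sides of the response to lipopolysaccharide (LPS) in RAW264.7, a macrophage-like cell line of the mouse. They were selected on their LPS minus vehicle differences, 1 gene higher and 1 lower with LPS. Each was read by 1 probe, paired with the gene's RefSeq transcript in the scanner tables, so the members are 2 of 33012 gene probes. RNA of 33 cultures was hybridised to one-colour arrays, 3 in each of 11 groups, after 6 h of treatment. In 9 groups the cells received LPS at 1 µg/ml together with albiflorin, paeoniflorin or paeonol, each at 1, 10 or 100 µg/ml. A further group received LPS alone, and the last group received the vehicle, 0.1% DMSO. All 3 compounds come from peony root. Albiflorin and paeoniflorin are isomeric monoterpene glycosides, and paeonol is a smaller phenolic ketone with no sugar.

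Tripartite motif proteins carry a RING finger, B-box and coiled-coil region, and many of them are ubiquitin ligases. A number of them are switched on by interferon, which macrophages release after LPS binds Toll-like receptor 4, and some of these restrict viruses. Trim34a is a member of the mouse cluster that holds the interferon-responsive Trim5, Trim12 and Trim30 genes. Its protein-coding neighbours in RefSeq were Trim6 on one side and Trim5, Trim12a and its close paralogue Trim34b on the other. The probe's sequence was not used here, so signal from Trim34b on the Trim34a probe cannot be told apart from signal from Trim34a. Trim59 encodes a ligase anchored in membranes. Its human counterpart has been described both as a restraint on innate immune signalling and as a promoter of tumour cell growth. Its neighbours were Smc4, a condensin subunit that compacts chromosomes, and Kpna4, a nuclear import receptor. None of these 6 neighbours had a named probe.

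The start regions of both genes are shown because members of one family with opposite LPS responses can be compared there for the letters of known regulatory motifs. Sequences are from RefSeq (GRCm38.p6), written 5′ to 3′ on the gene's strand, and both genes were found by symbol. Capitals mark the matches. The first sequence covers bases 1 to 30 after the annotated transcript start of Trim34a (chr7:104244457-104244486, plus strand) and holds a match to the core of the interferon-stimulated response element. The other sequences cover the 100 bases before the start of Trim34a (chr7:104244357-104244456, plus strand) and of Trim59 (chr3:69044743-69044842, minus strand).
Trim34a after the start: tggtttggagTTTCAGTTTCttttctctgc
Trim34a before the start: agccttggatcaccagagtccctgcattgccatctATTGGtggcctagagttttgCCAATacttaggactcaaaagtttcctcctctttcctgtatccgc
Trim59 before the start: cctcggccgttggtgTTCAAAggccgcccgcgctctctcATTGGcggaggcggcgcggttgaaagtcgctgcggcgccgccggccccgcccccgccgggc

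The 300-base windows searched ran from 250 bases before to 50 bases after each start, on both strands. TTTC, any 2 bases and TTTC again, or the reverse complement, which is the core of the interferon-stimulated response element, matched once in Trim34a, at bases 11 to 20 after the start, and not in Trim59. These letters occur in 3.44% of 32851 mouse promoter windows. TTTGAA or its reverse complement, the letters of the cell cycle homology region, matched once in Trim59, 85 bases before the start, and not in Trim34a. They occur in 17.9% of windows. CCAAT or its reverse complement matched at -65 and -45 in Trim34a and at -61 in Trim59, and occurs in 37.4% of windows. TTCNNNGAA, the interferon-gamma activated site, the E2F forms TTTCCCGC and TTTGGCGC, and the NF-kB consensus matched in neither window. They occur in 8.30%, 1.07%, 0.514% and 8.46% of windows. None of the listed letters was found in the window of Trim41, the other named family member. The interferon response element core was also absent from the windows of Ifi202b and C130026I21Rik, interferon-inducible genes that rose with LPS. Ifi202b held 1 interferon-gamma activated site match, at -148, and C130026I21Rik held 2 matches to the cell cycle homology region, at -230 and -3.

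Median scanner signals of the arrays lay between 335.9 and 1439.7. Detection, a signal over noise of at least 3, held for 38.2% to 49.7% of an array's gene probes. Paeoniflorin 10 replicate 1 stood apart, with the lowest detection and a median correlation of 0.906 with the other arrays. The lowest values among the other 32 arrays were 40.6% and 0.944. Differences of paeoniflorin at 10 µg/ml from LPS alone and from the other compounds are given with and without paeoniflorin 10 replicate 1. So are the mean over the paeoniflorin doses and the correlation of the genes across arrays. The joint tests over the doses, the exact permutation tests against LPS alone and the correlations of group means are given only with it. Probes with a wide gap in their values divided the arrays into 3 sets of 15, 10 and 8. These sets are not named by the labels or headers. Only 316 probes could be given a gene name. Of 12 macrophage markers listed, 1 had a named probe, Cebpb, a macrophage transcription factor, which was detected on all 33 arrays with both of its probes. No lymphocyte, fibroblast or epithelial marker had a named probe. In RNA of whole cultures, fewer cells of a kind and less RNA per cell cannot be told apart.

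The first question was how each gene stood in cells given LPS alone, against vehicle. The rule used this contrast, so it is described and not tested. Trim34a had normalized log2 signals of 13.46, 13.96 and 13.62 in LPS cultures and of 9.00, 10.70 and 9.88 in vehicle cultures. It was detected on 3 of 3 LPS arrays and on 1 of 3 vehicle arrays, with signal over noise of 26.0 to 34.8 with LPS and of 1.73 to 6.70 with vehicle. Every LPS array lay above every vehicle array, and the 3 vehicle values were spread far more widely than the LPS values (SD 0.85 against 0.25 with LPS). The share of tested probes that separated in this way was not counted, and the gene was chosen on this contrast. The difference, LPS minus vehicle, was 3.82 ± 0.334 (SE) on the log2 scale, or 14.1-fold (n = 3 each). Since 2 of the 3 vehicle arrays were below the detection limit, this fold rests on values near background. The SE of a difference, here and below, comes from a fit that pools the spread over all 11 groups. In the fit of the compared groups only, the SE of this difference was 0.436.

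Trim59 had log2 signals of 15.01, 14.96 and 14.93 in LPS cultures and of 16.11, 16.18 and 15.93 in vehicle cultures, and was detected on all 33 arrays. The 2 groups did not overlap and both were tight, with an SD of 0.044 in LPS cultures and 0.13 in vehicle cultures. Here too the share of tested probes separated in this way was not counted, and the contrast had chosen the gene. LPS minus vehicle was -1.11 ± 0.146, which is 2.15-fold lower with LPS. Over all 19438 tested probes the median difference was -0.047. In this comparison 14.9% of the tested probes were called, 6.59% as higher and 8.36% as lower with LPS. Within the scan days, LPS minus vehicle was 4.46, 3.25 and 3.74 for Trim34a and -1.10, -1.22 and -1.01 for Trim59. Within the array sets that held both groups it was 4.46 (1 array against 1) and 3.50 (2 against 2) for Trim34a, and -1.10 and -1.11 for Trim59.

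**Figure D1:**
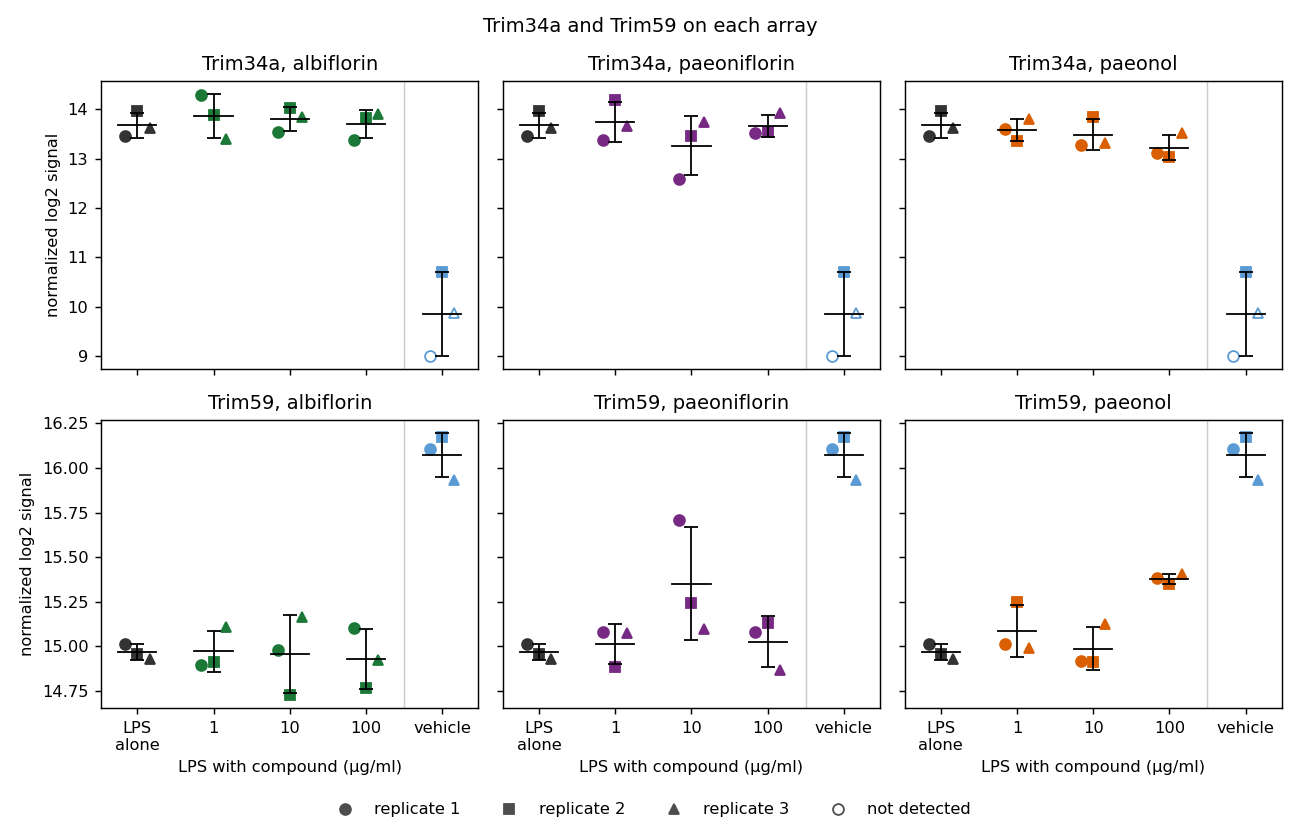
Normalized log2 signal of Trim34a (top) and Trim59 (bottom) on each array, by compound and dose in µg/ml, with LPS alone at the left and vehicle at the right of each panel. Points are arrays, shaped by replicate, open where the probe was not detected, and bars are the mean ± SD of 3 arrays; the Trim59 values of paeonol at 100 µg/ml, 15.35 to 15.40, lie above those of LPS alone.

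Neither gene returned to its vehicle level on any array that received LPS. Trim34a ran from 12.60 through a median of 13.57 to 14.29 over the 30 arrays with LPS, and was detected on all of them. Trim59 ran from 14.73 through a median of 15.04 to 15.71. The lowest Trim34a and the highest Trim59 value came from the same array, paeoniflorin 10 replicate 1. Without it the 26 other compound arrays ran from 13.04 to 14.29 for Trim34a and from 14.73 to 15.40 for Trim59. The 9 compound groups share the vehicle arrays with LPS alone, so their differences from vehicle are given side by side. They were 3.36 to 4.0 for Trim34a, beside 3.82 for LPS alone, and -1.14 to -0.69 for Trim59, beside -1.11 for LPS alone.

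In order of the group means, Trim34a was highest with albiflorin at 1 µg/ml (13.86 ± 0.44, SD), then albiflorin 10, paeoniflorin 1, albiflorin 100, LPS alone, paeoniflorin 100, paeonol 1, paeonol 10, paeoniflorin 10, paeonol 100 (13.22 ± 0.26) and last vehicle (9.86 ± 0.85). Neighbours in this order above vehicle differed by less than their spread over arrays. Trim59 was highest with vehicle (16.07 ± 0.13), followed by paeonol 100 (15.38 ± 0.029), paeoniflorin 10 (15.35 ± 0.32), paeonol 1, paeoniflorin 100, paeoniflorin 1, paeonol 10, albiflorin 1, LPS alone, albiflorin 10 and albiflorin 100 (14.93 ± 0.17). Below vehicle its neighbours differed by less than the larger of their SDs, although the gap between paeoniflorin 10 and paeonol 1 (15.08 ± 0.14) exceeded the SD of paeonol 1. Paeonol 100 and paeoniflorin 10 stood next to vehicle in both orders. For Trim34a the place of paeoniflorin 10 rested on replicate 1, the array that stood apart. Without it paeoniflorin 10 minus LPS alone was -0.083, above paeonol 1 (-0.095) and paeonol 10 (-0.19). For Trim59 it was then 0.21, still above paeonol 1 (0.12).

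The second question was whether a compound changed either gene in cells given LPS. The LPS arrays also entered the contrast that chose the members, so comparisons with LPS alone are not independent of that choice. A chance extreme in those arrays would lower the Trim34a differences and raise the Trim59 differences. Neither gene was called in any of the 9 comparisons with LPS alone (limma, Benjamini-Hochberg adjusted p of at least 0.726 for Trim34a and at least 0.420 for Trim59). The background was as sparse: 0% of the tested probes were called in 8 of these comparisons and 0.144% with paeonol at 100 µg/ml. That last count was 28 probes, against 94 when the scan day was fitted as a block. The 95% intervals of the differences from LPS alone were ± 0.69 around the estimate for Trim34a and ± 0.30 for Trim59. They use the pooled spread, which includes the wide vehicle values of Trim34a. These intervals are not adjusted for the number of probes, and with adjustment Trim59 differences of 0.41 and 0.38 were not called.

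Paeonol at 100 µg/ml gave the tightest displacement of Trim59. The log2 signals were 15.38, 15.35 and 15.40 with paeonol 100 and 15.01, 14.96 and 14.93 with LPS alone, and no value of one group reached the other. All 3 paeonol arrays lay above all 3 LPS arrays, as they did for 8.95% of the tested probes in this comparison. The difference was 0.41 ± 0.146 (SE), with a 95% interval of 0.11 to 0.71 and a limma adjusted p of 0.420. An exact 2-sided permutation test of 3 arrays against 3 gave p = 0.1, the smallest that 20 arrangements allow. Within the scan days the differences were 0.37, 0.39 and 0.48. Of the 3 paeonol arrays, 1 lay in an array set that held LPS arrays, where the difference was 0.33, and with the array set as a block it was 0.39 (adjusted p = 0.461).

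Trim34a had log2 signals of 13.11, 13.04 and 13.52 with paeonol 100 and of 13.46, 13.96 and 13.62 with LPS alone, and these groups overlapped. The difference was -0.46 ± 0.334, with a 95% interval of -1.15 to 0.23 and a limma adjusted p of 0.861. Within the scan days the differences were -0.35, -0.91 and -0.10, negative on each of the 3. With the array set as a block the difference was -0.22 (adjusted p = 0.891), and in the 1 set with arrays of both groups it was -0.42.

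Paeoniflorin at 10 µg/ml showed the next largest values. Trim59 read 15.71, 15.24 and 15.10 with paeoniflorin 10, each above the 3 LPS values of 15.01, 14.96 and 14.93. Such a separation upward was seen for 2.71% of the tested probes. The difference was 0.38 ± 0.146 (limma adjusted p = 0.629). Without replicate 1, the array that stood apart, it was 0.21 ± 0.139 (adjusted p = 1.00), so that single array carried much of the difference. Trim34a read 12.60, 13.45 and 13.74 with paeoniflorin 10 and 13.46, 13.96 and 13.62 with LPS alone, a difference of -0.42 ± 0.334 (limma adjusted p = 0.726) that was -0.083 ± 0.347 without replicate 1.

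The other 7 compound groups overlapped with LPS alone for both genes. Albiflorin gave differences near 0 for Trim59, 0.0045, -0.0093 and -0.037 at 1, 10 and 100 µg/ml, and small positive ones for Trim34a, 0.18, 0.12 and 0.022. Paeoniflorin at 1 and 100 µg/ml gave 0.062 and -0.018 for Trim34a and 0.047 and 0.060 for Trim59. Paeonol at 1 and 10 µg/ml gave -0.095 and -0.19 for Trim34a and 0.12 and 0.020 for Trim59.

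**Figure D2:**
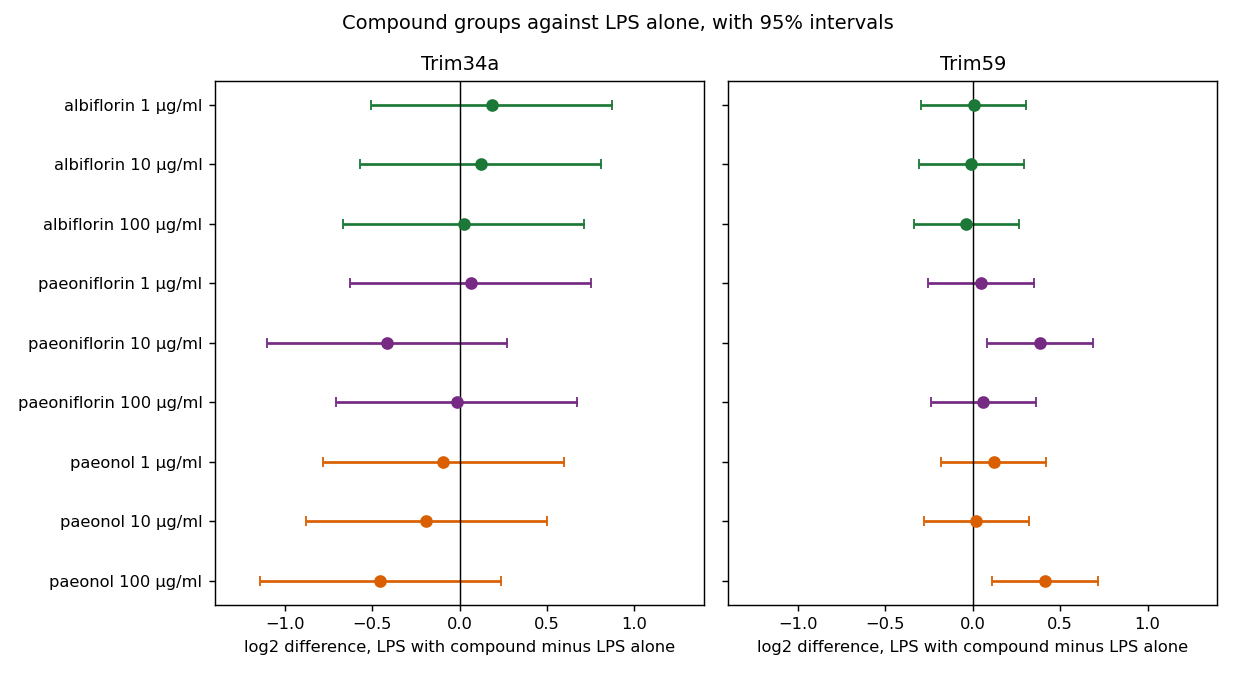
Log2 difference between LPS with a compound and LPS alone for Trim34a (left) and Trim59 (right), with 95% intervals from the fit over all arrays (n = 3 per group). Paeonol at 100 µg/ml stands at -0.46 and 0.41, and none of the 18 differences passed an adjusted p of 0.05.

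Over the 3 doses of a compound together, against LPS alone, paeonol stood at -0.25 for Trim34a and 0.18 for Trim59. Paeoniflorin stood at -0.12 and 0.16, or -0.013 and 0.10 without replicate 1 of the 10 µg/ml group, and albiflorin at 0.11 and -0.014. Exact 2-sided permutation tests of 9 compound arrays against 3 LPS arrays (220 arrangements) gave p of 0.191 to 0.900, and at least 0.436 after adjustment over the 6 tests. In the fit over all arrays neither gene was called for any of these means, where 0% of the tested probes were called for albiflorin and for paeonol and 0.00514% for paeoniflorin.

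The slope of paeonol per 10-fold dose was -0.18 ± 0.167 for Trim34a (limma adjusted p = 0.923), or -0.083 with median scaling, and 0.15 ± 0.073 for Trim59 (adjusted p = 0.742). The Trim59 means did not climb step by step, since they were 15.08, 14.98 and 15.38 at 1, 10 and 100 µg/ml. Slopes of albiflorin and paeoniflorin were -0.081 and -0.040 for Trim34a and -0.021 and 0.0065 for Trim59. No slope of either gene was called, where 0% of the tested probes were called for albiflorin and paeoniflorin and 0.0206% for paeonol.

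The third question was whether the compounds differed from each other at the same dose, over 3 pairs of compounds. Paeonol and albiflorin differ in the whole monoterpene glycoside skeleton, and of the doses of this pair 100 µg/ml gave the largest differences. Trim59 averaged 15.38 ± 0.029 with paeonol and 14.93 ± 0.17 with albiflorin (SD, n = 3 each), a difference of 0.45 with a 95% interval of 0.15 to 0.75 (limma adjusted p = 0.354). Trim34a averaged 13.22 ± 0.26 with paeonol and 13.70 ± 0.28 with albiflorin, a difference of -0.48 with an interval of -1.17 to 0.21 (limma adjusted p = 0.705). Paeonol 100 replicates 1 and 3 lay in the array set of 8, which held no albiflorin array. Compound and array set can therefore not be fully told apart here. In the set of 15, Trim59 read 15.35 with paeonol 100 and 15.10 and 14.77 with albiflorin 100. Trim34a read 13.04 there with paeonol 100 and 13.38 and 13.83 with albiflorin 100. Paeonol minus paeoniflorin at 100 µg/ml was 0.35 (0.051 to 0.65) for Trim59 and -0.44 (-1.13 to 0.25) for Trim34a. At 10 µg/ml it had the other sign, -0.36 (-0.67 to -0.063) for Trim59 and 0.22 (-0.47 to 0.91) for Trim34a. These differences became -0.19 and -0.11 without paeoniflorin 10 replicate 1. No difference of either gene passed the threshold (smallest adjusted p 0.644 for Trim34a and 0.354 for Trim59), where the tested probes called were 0.0103%, 0% and 0.0309% for paeonol minus albiflorin at 1, 10 and 100 µg/ml, 0.0154% for paeonol minus paeoniflorin at 100 µg/ml, and 0% in the other 5 comparisons.

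Albiflorin and paeoniflorin, the isomers, differed by -0.043 for Trim59 and 0.12 for Trim34a at 1 µg/ml, albiflorin minus paeoniflorin. At 100 µg/ml the differences were -0.097 with an interval of -0.40 to 0.20 for Trim59 and 0.040 with an interval of -0.65 to 0.73 for Trim34a. At 10 µg/ml they were -0.39 (-0.69 to -0.092) for Trim59 and 0.54 (-0.15 to 1.23) for Trim34a. Without the array that stood apart they were -0.22 and 0.20. Over the 3 doses jointly, limma's moderated F gave adjusted p of 0.972, 0.524 and 0.908 for Trim59 in albiflorin against paeoniflorin, paeonol against albiflorin and paeonol against paeoniflorin (unadjusted p 0.0759, 0.0349 and 0.0175). For Trim34a the adjusted p were 0.972, 0.818 and 0.921. The tested probes called by this F were 0%, 0.0154% and 0.00514% for the 3 pairs. None of these shows that the compounds act alike.

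**Figure D3:**
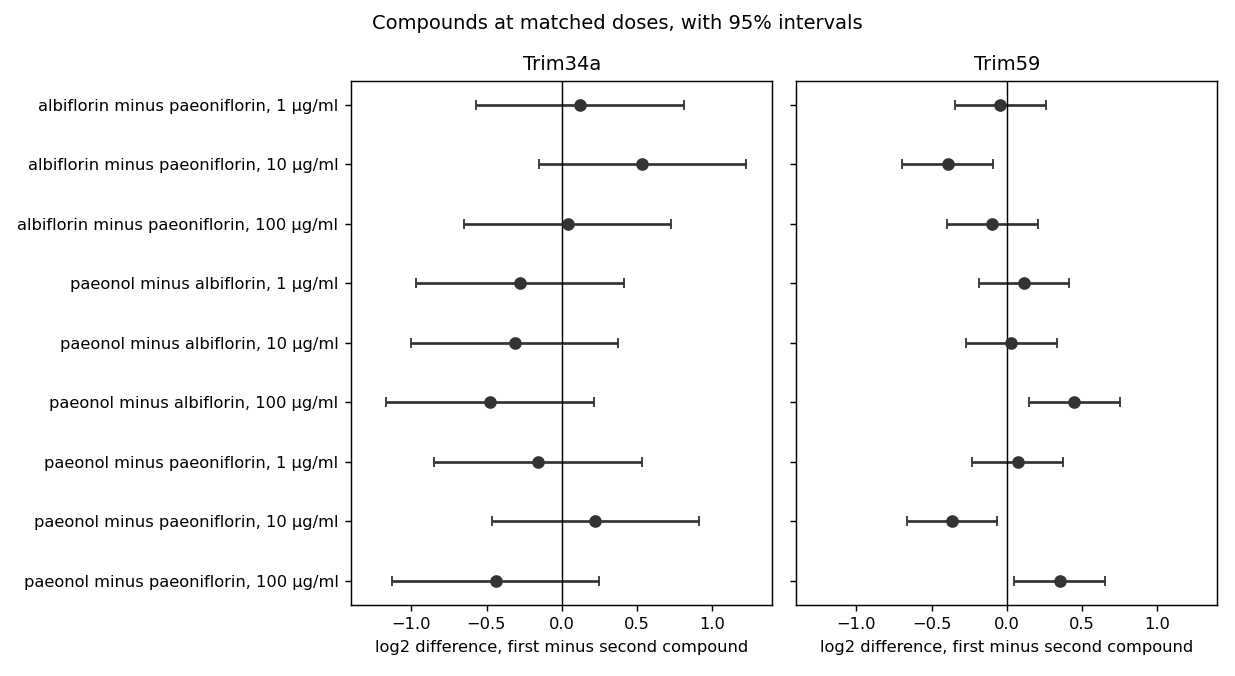
Log2 differences between compounds at matched doses, first-named minus second-named, for Trim34a (left) and Trim59 (right), with 95% intervals (n = 3 per group). For Trim59 the intervals of paeonol against both glycosides at 100 µg/ml lie above 0 before adjustment. Those of albiflorin and of paeonol against paeoniflorin at 10 µg/ml, a group that holds the array that stood apart, lie below 0. All 9 intervals of Trim34a include 0.

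Although no compound effect passed the test, the 2 genes moved against each other from array to array within LPS-treated cells. Over the 27 arrays with LPS and a compound, Pearson's r of Trim34a with Trim59 was -0.81 (permutation p = 1e-05, the smallest that 100000 resamples give; adjusted p = 0.00013 over 13 relations). Spearman's rho was -0.75 (permutation p = 2.0e-05). Paeoniflorin 10 replicate 1 was lowest in Trim34a and highest in Trim59, while paeonol 10 replicate 1, with a low Trim34a of 13.29, had a Trim59 of 14.92, below the compound-array median of 15.08. Leaving out the 2 arrays farthest from the Trim34a median, paeoniflorin 10 replicate 1 and albiflorin 1 replicate 1, gave r = -0.72 (permutation p = 6.0e-05). The relation was also present among cultures of the same treatment: on deviations from the group means r was -0.77 (permutation p = 2.0e-05), and -0.70 without paeoniflorin 10 replicate 1. All these permutations treated the arrays as independent, although arrays share treatments, scan days and array sets, so the p may be too small. Deviations of a group also cancel out, so the p on deviations is too small. The 13 relations are overlapping subsets of the same arrays, so the adjustment over them adds no independent evidence.

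Within the scan days r was -0.83, -0.90 and -0.58 for replicates 1, 2 and 3 (exact permutation p = 0.0047, 0.00098 and 0.100, n = 9 each). Within the array sets r was -0.83 (n = 13, permutation p = 0.00046), -0.50 (n = 6, exact permutation p = 0.294) and -0.81 (n = 8, exact permutation p = 0.015). For the set of 8 arrays Spearman's rho was -0.67 (exact permutation p = 0.083). Paeoniflorin 10 replicate 1 carried part of these values. Without it r was -0.65 on the scan day of replicate 1 (exact permutation p = 0.130, n = 8) and -0.56 in its array set (exact permutation p = 0.2, n = 7). The share of probes detected on an array had an r of 0.34 with Trim34a and -0.20 with Trim59, but of 0.025 and 0.23 without paeoniflorin 10 replicate 1. The median signal had an r of 0.27 and 0.075, and of 0.22 and 0.21 without that array. Their part in the relation was not tested. Over all tested probes, strong relations of this kind were uncommon but not particular to the pair. Of 17736 tested probes with a value on all 27 arrays, 169 (0.953%) had an r with Trim34a at or below that of Trim59, and 63 (0.355%) had an r with Trim59 at or below that of Trim34a. The pair was chosen for opposite LPS responses, and all 27 arrays received LPS. The shares among probes with an LPS response of the opposite sign were not counted, so these shares do not set the pair apart from such probes.

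**Figure D4:**
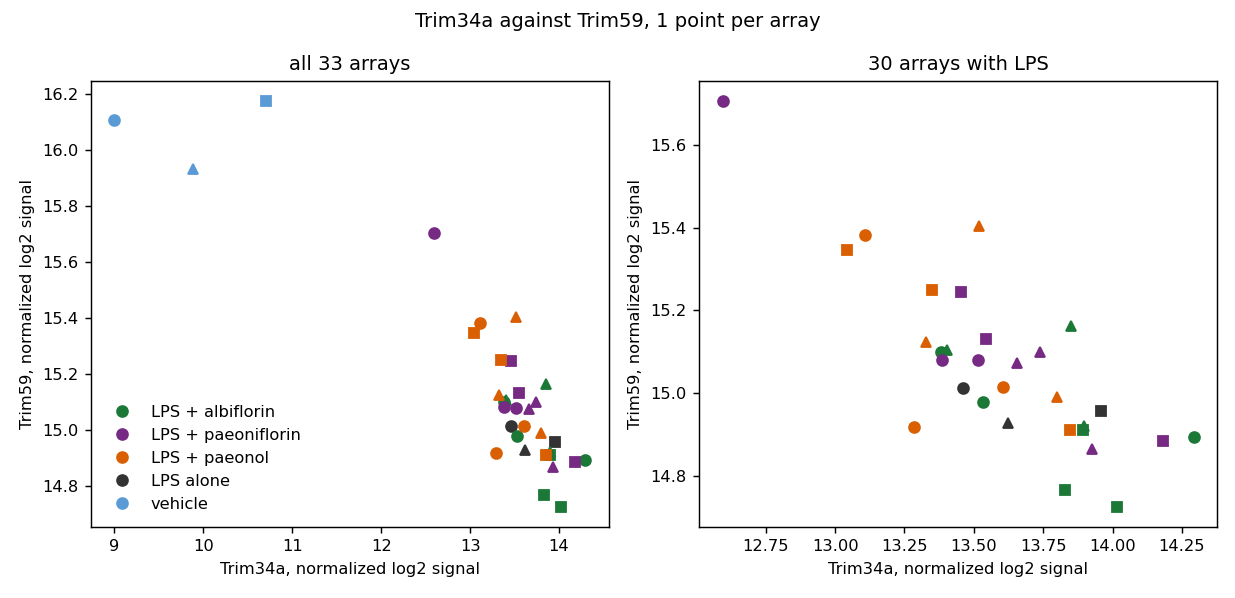
Normalized log2 signal of Trim34a (x axis) against Trim59 (y axis), for all 33 arrays (left) and for the 30 arrays with LPS (right); colours give the treatment and shapes the replicate number. Vehicle arrays lie apart at the upper left, and over the 27 compound arrays Pearson's r was -0.81.

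The genes whose group means ran most like those of each member are given as a description over 182 other named probes. Over all 11 group means, which the step between LPS and vehicle dominates, Trim34a was most like Csprs (r = 0.99), Ifi202b (0.99), C130026I21Rik (0.99), Bcl2a1b, an anti-apoptotic Bcl2 relative (0.98), and 2700081O15Rik (0.95). It was least like Tbc1d16, a Rab GTPase activator (-0.96), Lrrk1, a leucine-rich repeat kinase (-0.95), and Trim59 itself (-0.95). Trim59 was most like H2bc18, a histone H2B gene (0.97), Dhrs7b (0.97), Dynlt1b, a dynein light chain (0.96), Tbc1d16 (0.95) and the splicing factor gene Sf3b5 (0.95). It was least like C130026I21Rik (-0.97), Nlrp3, the inflammasome sensor (-0.96), and Amigo3 (-0.95).

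Over the 9 compound group means alone, where neither LPS alone nor vehicle enters, Trim34a ran with Wdfy1 and C130026I21Rik (r = 0.90 each), Gnas (0.87), H2-Q7 (0.84) and Drg2 (0.82), and against Paqr9 (-0.93), Dhrs7b (-0.92) and Trim59 (-0.90). Paqr9 was detected on 3 arrays only. Trim59 ran with Sf3b5 (0.94), Dhrs7b (0.93), Mapk1ip1 (0.90), H2bc18 (0.88) and Foxn3, a forkhead repressor (0.86), and against Trim34a (-0.90), C130026I21Rik (-0.88) and Nlrp3 (-0.86). With 9 points each, many probes reach such values: 74 of 19436 other tested probes had an r with Trim34a at or above that of C130026I21Rik.

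Other genes of the pathways were taken from lists, of which few had a named probe. Of 74 tripartite motif genes, 3 were named, the 2 members and Trim41, a ubiquitin ligase. Trim41 had log2 signals of 15.48, 15.66 and 15.67 in LPS cultures and of 15.65, 15.71 and 15.78 in vehicle cultures. These overlapped, and the difference of -0.11 ± 0.169 did not pass the test (limma adjusted p = 0.806). With the authors' normalization it was 0.0082, so no direction can be given. It was not called in any comparison with LPS alone or between compounds (smallest adjusted p 0.742).

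Of 99 interferon-inducible genes listed, 5 were named and 4 rose with LPS, beside 6.59% of all tested probes called higher; the earlier results of these data had shown several of them as risen. Ifi202b, an interferon-activated gene of the p200 family, read 19.63, 20.24 and 20.01 in LPS cultures and 15.20, 15.75 and 14.97 in vehicle cultures. It rose 25.2-fold (4.65 ± 0.235, limma adjusted p = 1.56e-13). Csprs rose by 4.31 ± 0.234, C130026I21Rik by 2.74 ± 0.199 and H2-Q7, a class I histocompatibility gene, by 0.59 ± 0.162 (limma adjusted p = 6.12e-13, 1.55e-10 and 0.012). H2-Q7 lost its call under 3 of the alternatives tried: the fit of the compared groups only, and without vehicle replicate 3 or LPS replicate 2. Tlr7, an endosomal receptor for single-stranded RNA, stood at 0.69 ± 0.418 and did not pass the test (limma adjusted p = 0.342). The median of the 5 was 2.74, the value of C130026I21Rik, beside -0.047 over all tested probes. Since several of the 5 were listed with their rise known, neither this median nor their p with LPS is independent of that choice. With paeonol 100 against LPS alone all 5 had negative differences, of -0.83 for Csprs, -0.63 for C130026I21Rik, -0.47 for Ifi202b, -0.47 for Tlr7 and -0.17 for H2-Q7, beside -0.46 for Trim34a. None was called (limma adjusted p of at least 0.240), and over all tested probes the median difference was 0.034. The LPS arrays in which these genes rose are also the reference here, and the 5 genes and Trim34a share them. Their common sign is therefore not independent of the choice of genes. The share of negative differences among probes raised by LPS was not counted.

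Of 87 other RING-type ubiquitin ligases 2 were named, and 1 was tested. Rnf169, which binds ubiquitylated chromatin at DNA breaks, fell by 0.56 on the log2 scale with LPS (SE 0.182, limma adjusted p = 0.039), beside 8.36% of tested probes called lower. It lost its call under 9 of the alternatives tried, 5 of which left out a single array. Rnf150 was not detected on any array. Of 57 cell cycle genes 1 was named, H2bc18, which read 12.70, 11.83 and 11.69 in LPS cultures and 14.70, 13.81 and 14.27 in vehicle cultures. It was detected on 1 of 3 LPS arrays and 3 of 3 vehicle arrays and fell by 2.18 ± 0.311 (limma adjusted p = 1.08e-05). The macrophage marker Cebpb rose by 0.83 ± 0.178 on the probe 450590 (limma adjusted p = 0.0016) and stood at 1.16 ± 0.698 on the probe 640455 (adjusted p = 0.334). These lists too were chosen with earlier results of the data known. The p of Rnf169, H2bc18 and Cebpb are therefore not independent of that choice.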

How the data were processed

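RNA of 33 RAW264.7 cultures was labelled with digoxigenin and read on one-colour arrays, per the labels' protocols. The scanner tables deposited by the authors give each spot a linear intensity, not normalized across arrays as judged from the values, and a signal-over-noise score. The authors also deposited a table of processed log2 values; its normalization method is not given in the sources used here, and it served as an alternative. Headers matched the labels on 33 of 33 arrays. Values of spots whose quality flag exceeded 5000 were treated as missing, and signals were quantile normalized, floored at the 5th percentile (165.7) and taken to log2. Probes with a signal over noise of at least 3 on 3 or more arrays were tested (19438).

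All arrays entered one limma 3.58.1 model of 11 group means (R 4.3.3), with Benjamini-Hochberg adjustment over all tested probes of a comparison and calls at an adjusted p under 0.05. Permutation tests and correlations used scipy 1.17.1. The fitting steps were tested on simulated data. The design text gives 3 biological replicates per group, and the number of arrays limits the precision. Per the file headers each of the 3 replicate numbers is 1 scan day, so same-numbered arrays share a day. Deviations from group means correlated at a median of 0.192 for arrays of 1 day and -0.11 for arrays of different days, and every pair with LPS lay over 0.1 in 6 of 10 comparisons.

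Names came from RefSeq genes (GRCm38.p6) by accession and covered 316 of 33012 probes; none of the 27930 probes with a Celera identifier was named. The text names the members, every list gene with a named probe, and the 5 named probes most like and 3 least like each member over 11 and over 9 group means. Members and lists were chosen with earlier results of these data known. LPS against vehicle was used to choose the members, so no test of them is given there. The same LPS arrays are the reference for every compound minus LPS difference, which is therefore not independent of the choice. Alternatives were median scaling, the authors' table, other floors, filters and blocks, fits of the compared groups only, and each array left out. The array sets were found and used after seeing the data.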

Additional observations from a re-analysis of the deposited data

Results flagged for a closer look

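Trim34a at 10 µg/ml lay on opposite sides of LPS alone with 2 of the compounds when each array was set against the LPS array of its scan day. With paeonol the 3 differences were -0.17, -0.11 and -0.29, and with albiflorin they were 0.072, 0.059 and 0.23, so that all 3 arrays of one compound lay below LPS alone and all 3 of the other above it. The difference between the compounds, paeonol minus albiflorin, was -0.31. In the limma fit this difference had an SE of 0.334 and an unadjusted p of 0.358, and it was not called. Neither side was stable: paeonol 10 minus LPS was 0.040 with the array set as a block and 0.39 within the 1 array set that held both groups (1 array each), and albiflorin 10 minus LPS was -0.11 with median scaling. Groups of 3 arrays were not tested for single outlying arrays.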

How the results depend on the processing

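Neither gene was called in any comparison among LPS-treated groups under any of the 40 alternatives run; the smallest adjusted p was 0.281 for Trim34a and 0.110 for Trim59, both without paeoniflorin 10 replicate 3. For LPS minus vehicle, alternatives gave 3.39 to 4.24 for Trim34a and -1.18 to -1.01 for Trim59, where -1.01 came from the authors' table, which also gave -0.98 for Trim59 with albiflorin 1 minus vehicle; median scaling gave -1.30 for albiflorin 10 minus vehicle. With the replicate block, paeonol 100 minus LPS kept its estimates of 0.41 for Trim59 (adjusted p = 0.225) and -0.46 for Trim34a (0.651), and the block changed no call of either gene. The headers hold no slide or batch other than the scan day, so a block for them would be the replicate block.

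A number of differences smaller than their SE changed sign. Not all were close to 0. In the main fit Trim34a had -0.19 for paeonol 10 minus LPS, 0.18 for albiflorin 1 minus LPS and 0.22 for paeonol minus paeoniflorin at 10 µg/ml. Median scaling, which moved the median of all tested probes by up to -0.20 (albiflorin 10 minus LPS), gave for Trim34a -0.11 and -0.088 for albiflorin 10 and 100 minus LPS, 0.032 for paeoniflorin 100 minus LPS, -0.0099 for the albiflorin mean and -0.12 for albiflorin minus paeoniflorin at 100 µg/ml. For Trim59 it gave -0.013 and -0.12 for albiflorin 1 and paeonol 10 minus LPS and -0.013 for paeonol minus paeoniflorin at 1 µg/ml. The authors' table gave for Trim34a -0.042 for albiflorin 100 and 0.0014 for paeoniflorin 100 minus LPS and -0.043 for albiflorin minus paeoniflorin at 100 µg/ml, for Trim59 0.0029 for the albiflorin mean, and for Trim41 0.0082 for LPS minus vehicle. With the array set as a block, added after seeing the data, Trim34a stood at 0.19, 0.14 and 0.040 for paeoniflorin 100, paeonol 1 and paeonol 10 minus LPS, 0.014 for the paeoniflorin mean, 0.019 for the paeoniflorin slope and -0.077 for albiflorin minus paeoniflorin at 100 µg/ml, and Trim59 at -0.0057 for paeonol 10 minus LPS. The cause of these sign changes was not tested.

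Leaving out single arrays, Trim34a minus LPS ran from -0.031 to 0.41 for albiflorin 1, -0.088 to 0.18 for albiflorin 100, -0.0015 to 0.25 for the albiflorin mean, -0.16 to 0.24 for paeoniflorin 1, -0.15 to 0.12 for paeoniflorin 100, -0.23 to 0.015 for the paeoniflorin mean and -0.20 to 0.044 for paeonol 1. Its slopes ran from -0.20 to 0.027 for albiflorin and -0.13 to 0.071 for paeoniflorin, its albiflorin minus paeoniflorin difference from -0.093 to 0.35 at 1 and -0.058 to 0.20 at 100 µg/ml, and its paeonol minus paeoniflorin difference from -0.33 to 0.064 at 1 and -0.11 to 0.46 at 10 µg/ml. Trim59 minus LPS ran from -0.063 to 0.043 for albiflorin 1, -0.11 to 0.11 for albiflorin 10, -0.12 to 0.044 for albiflorin 100, -0.048 to 0.025 for the albiflorin mean and -0.050 to 0.056 for paeonol 10. Its slopes ran from -0.063 to 0.020 for albiflorin and -0.026 to 0.046 for paeoniflorin, paeonol minus albiflorin at 10 µg/ml from -0.086 to 0.13 and paeonol minus paeoniflorin at 1 µg/ml from -0.011 to 0.12. The correlation of Trim34a with Trim59 was -0.58 on scan day 3 (exact permutation p = 0.100). It was -0.50 among the 6 compound arrays of the array set of 10 (exact permutation p = 0.294). Without paeoniflorin 10 replicate 1 it was -0.65 on scan day 1 and -0.56 in the array set of that array, neither of which passed (exact permutation p = 0.130 and 0.2).

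Counts over all probes moved more. For LPS minus vehicle the count was 2905, against 1881 with median scaling, 1766 with only the compared groups and 3774 with the replicate block. For paeonol 100 minus LPS it was 28, against 94 with the replicate block, 9 with median scaling, 12 without the detection filter and 0 with only the compared groups (1707 at an unadjusted p under 0.05), and 5 to 53 with single arrays left out. The 3 arrays per group, and the detection of Trim34a on 1 of 3 vehicle arrays, limit what can be resolved.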
